A study of Mus musculus with 6 samples.

Results

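The genes examined here encode the light-sensing machinery of photoreceptors, the proteins that build the outer segment, and the transcription factors that direct them. They are a list of 35 genes among the 20822 genes of the count table, chosen by name. By their known use, 12 are assigned to rods, 10 to cones and 13 to both. Single cells of mouse retina were measured by Drop-seq, in which each mRNA molecule is tagged at its 3' end and counted once as a unique molecular identifier (UMI). All 6 libraries came from pups at postnatal day 14 in the oxygen-induced retinopathy model, in which a period of high oxygen thins the retinal vessels and the return to room air leaves the retina ischemic. There were 3 replicates labelled eNOS+/+ (C57BL/6, and C57BL/6J in the methods) and 3 labelled eNOS-/-, each a pool of 3 to 5 retinas. The methods give the eNOS-/- mice as homozygous for a Nos3 knockout allele kept on C57BL/6J by backcrossing. The suspension was enriched for endothelial cells (ECs) on beads with CD31 antibody, so rods and cones are the cells that came along with the ECs, and their share reflects the enrichment as well as the retina. Cell types are those of the deposited annotation.

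Phototransduction starts when a visual pigment absorbs light and activates transducin, a G protein that switches on a cGMP phosphodiesterase. The fall in cGMP closes cation channels of the outer segment, and arrestin, recoverin, guanylate cyclases and their calcium-sensing activators return the cell to the dark state. Rods and cones use separate genes for most of these steps, and the transcription factors Crx, Nrl and Nr2e3 set the rod program.

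The annotation held 1508 rods with 656387 UMIs and 50 cones with 54093 UMIs, beside 5925 ECs, 690 neurons, 214 mural cells, 216 immune cells, 184 neuroglia and 157 Optc+ cells. The replicates held 389, 7 and 56 rods in eNOS+/+ and 279, 751 and 26 rods in eNOS-/-, in replicate order. Cones were found in 4 replicates, with 6 and 7 in eNOS+/+ replicates 1 and 3 and with 4 and 33 in eNOS-/- replicates 1 and 2. The median depth was 361 UMIs in rods, 932.5 in cones and 682 in ECs. Total UMIs of a replicate ran from 617246 to 3350799. In eNOS+/+ replicate 2 the rods summed to 2031 UMIs, so that a gene with no UMI there could stand as high as 1477 CPM (UMIs per 1000000 UMIs of a sum) when 0 counts are read as up to 3. Only 3 cell barcodes were shared between replicates. The targeted gene Nos3, which encodes eNOS, gave 19.4, 36.6 and 23.6 CPM in the ECs labelled eNOS+/+ and 21.2, 16.1 and 32.8 CPM in those labelled eNOS-/-. The groups overlapped, and a 3' tag can lie outside a deleted part, so the gene cannot serve as a check, and genotype here means the label of a library.

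The upstream sequence of 4 members shows how differently these genes begin. They are the rod-side members Sag and Gnb1 and the cone-side members Pde6h and Opn1sw, chosen after values were seen as those with most UMIs in rods or in cones whose 250 bases before the RefSeq start hold no annotated exon. All are on the mouse build GRCm38.p6, read 5' to 3' on the strand of the gene. Capitals mark the letters TAATCC, the core of the sites that Crx and other homeodomain factors of photoreceptors bind, and TGCTGA, the core of sites of Maf-family factors such as Nrl, in either orientation.
Sag, rod arrestin, chr1:87803430-87803679, plus strand: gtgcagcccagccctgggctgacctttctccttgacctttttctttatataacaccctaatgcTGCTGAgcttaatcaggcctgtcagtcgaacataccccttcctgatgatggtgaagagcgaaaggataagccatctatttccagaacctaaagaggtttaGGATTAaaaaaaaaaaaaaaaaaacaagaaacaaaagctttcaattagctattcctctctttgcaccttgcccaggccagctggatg
Gnb1, a G protein beta subunit, chr4:155491111-155491360, plus strand: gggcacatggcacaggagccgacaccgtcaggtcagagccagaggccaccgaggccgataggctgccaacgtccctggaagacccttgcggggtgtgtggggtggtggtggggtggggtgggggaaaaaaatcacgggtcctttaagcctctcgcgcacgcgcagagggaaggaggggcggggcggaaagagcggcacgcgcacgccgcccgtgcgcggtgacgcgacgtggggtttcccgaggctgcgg
Pde6h, the cone inhibitory phosphodiesterase subunit, chr6:136954273-136954522, plus strand: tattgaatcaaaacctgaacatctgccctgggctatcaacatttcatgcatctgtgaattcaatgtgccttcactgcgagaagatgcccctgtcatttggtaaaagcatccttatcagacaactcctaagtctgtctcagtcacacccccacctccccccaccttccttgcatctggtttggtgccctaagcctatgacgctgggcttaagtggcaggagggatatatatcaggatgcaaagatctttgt
Opn1sw, the short-wavelength cone pigment, chr6:29380514-29380763, minus strand: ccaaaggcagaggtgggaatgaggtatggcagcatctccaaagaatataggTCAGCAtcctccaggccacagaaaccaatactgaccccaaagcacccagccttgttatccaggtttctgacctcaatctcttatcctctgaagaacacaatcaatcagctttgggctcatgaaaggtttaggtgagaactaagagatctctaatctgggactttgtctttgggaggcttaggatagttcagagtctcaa
The windows of Sag and Gnb1 end at the base before the gene begins in GENCODE. Those of Pde6h and Opn1sw lie in an intron of a longer GENCODE transcript of each gene, and the genes span chr6:136923832-136968865 and chr6:29376671-29388468. In Sag the 2 marked stretches begin at -187 (TGCTGA) and -87 (GGATTA, which is TAATCC on the other strand), counted from the start. Opn1sw holds TCAGCA, the reverse of TGCTGA, at -199. Gnb1 and Pde6h held neither. The Gnb1 window had 26 CpG dinucleotides and was 69.2% G or C, against 2 CpG and 42.8% in Sag. Promoters of 25 of the 35 members were found in the table. TAATCC was present in 11 of the 25 (44%), and in 6.25% of 32851 promoters of the same length. TGCTGA was present in 5 of 25 (20%), and in 16.1% of all promoters. These matches describe letters in a window and not bound sites.

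Members made up 8.34% of all UMIs in rods and 7.29% in cones, 0.296% in neurons and 0.0973% in ECs. In rods of eNOS+/+ the share was 9.60%, 3.89% and 4.93%, and in rods of eNOS-/- it was 9.16%, 7.36% and 9.84%. The 2 eNOS+/+ replicates with the lowest share are those with 7 and 56 rods. The cell types were clustered on these UMIs, so the contrasts of rods with cones are given with no test. In the 4 replicates with cones, 17 of the 35 members were higher in rods in every replicate and 9 were higher in cones in every replicate. Of the 5731 genes with at least 20 UMIs in rods and cones, 17.5% were higher in rods in all 4 and 3.33% higher in cones in all 4. Of the 12 rod-side members 11 were higher in rods throughout, and of the 10 cone-side members 8 were higher in cones throughout. A further list of 40 photoreceptor genes outside the 35, of which 37 had enough UMIs, gave 12 higher in rods and 6 higher in cones in all 4 replicates.

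**Figure D1:**
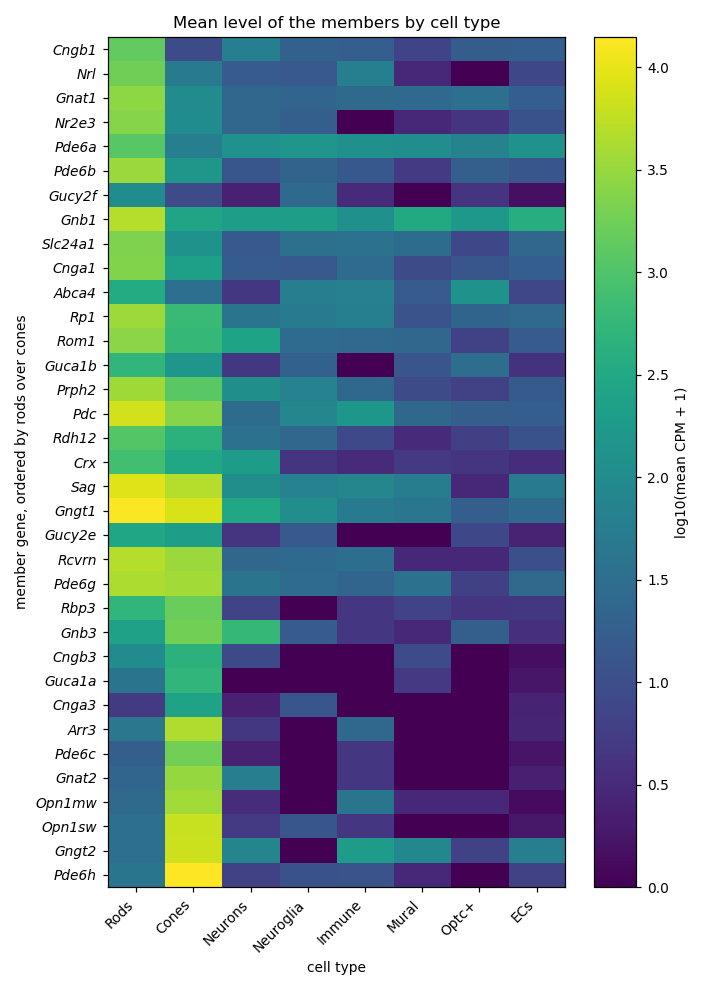
Mean level of each member over replicates (colour, log10 of CPM + 1) in 8 cell types, with members ordered by the ratio of rods to cones. Most rod-side members are bright in the first column and most cone-side members in the second, while Pde6a and Gnb1 are visible in every column.

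The pigment genes on the list were the 2 of cones. Opn1sw, the short-wavelength pigment, stood in cones at 6633 and 4285 CPM in eNOS+/+ replicates 1 and 3 and at 7886 and 6681 CPM in eNOS-/- replicates 1 and 2, and in rods of those replicates at 98.7, 47.6, 0 and 40.8 CPM. Opn1mw, the medium-wavelength pigment, stood in cones at 3677, 4523, 3605 and 3039.6 CPM and in rods at 14.8, 95.2, 7.75 and 37.4 CPM. No rod sum reached a cone sum, and the ratio of means was 136-fold for Opn1sw and 95.7-fold for Opn1mw. Opn1sw overlaps Calu on the opposite strand, and whether the counting used strand is not given in the sources used here.

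Transducin is built from an alpha, a beta and a gamma subunit, with a rod and a cone gene for each. The alpha gene Gnat1 of rods averaged 3042 CPM in rods (SD 1147, n = 4) and 98.1 CPM in cones (SD 94.0, n = 4), a ratio of 31.0. Its cone counterpart Gnat2 averaged 3108 CPM in cones (SD 455, n = 4) and was 94.9-fold lower in rods. The beta genes split in the same direction, with Gnb1 19.5-fold higher in rods and Gnb3 14.8-fold higher in cones. The gamma genes did not split to the same extent. Gngt1, the rod gamma subunit and the member with the most UMIs in rods (9236), was at 15797, 12049, 15579 and 12308 CPM in rods of the 4 replicates with cones and at 6633, 9284, 8112 and 7346 CPM in their cones. The groups did not overlap, but the ratio of means was only 1.78. Gngt2, the cone gamma subunit, was 142-fold higher in cones.

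The phosphodiesterase has catalytic and inhibitory subunits. The rod catalytic genes Pde6a and Pde6b were 25.4-fold and 23.7-fold higher in rods, from 6 and 13 UMIs in cones. Over the pooled UMIs their ratios were 13.6 and 16.2. The cone catalytic gene Pde6c was 72.6-fold higher in cones. The cone inhibitory gene Pde6h was at 12328, 17615, 12393 and 13709.9 CPM in cones and between 15.5 and 95.2 CPM in rods of the same replicates. This 234-fold ratio was the largest towards cones among the 35. Pde6g, the inhibitory subunit of rods, was at 4805, 3334, 5418 and 4198 CPM in rods and at 5479, 3095, 2929 and 3356 CPM in cones. These ranges overlapped, and Pde6g was the 1 rod-side member that was not higher in rods in all 4 replicates.

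The channel and exchanger genes carry the light response to the membrane. Cngb1, the beta subunit of the rod channel, averaged 895 CPM in rods (SD 348, n = 4), and only 1 UMI was counted in cones. Over the pooled UMIs its ratio was 53.2, with an exact 95% counting interval of 9.52 to 2106. The rod alpha subunit Cnga1 was 12.7-fold and the sodium, calcium and potassium exchanger Slc24a1 15.8-fold higher in rods. The cone subunits Cnga3 and Cngb3 were 41.5-fold and 20.0-fold higher in cones on average, from 6 and 35 cone UMIs, and neither was higher in cones in all 4 replicates.

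Shut-off genes were mostly present in both cell types. Sag, the rod arrestin, was at 10982, 5715, 11749.9 and 10338 CPM in rods and at 4181, 4523, 5408 and 5604 CPM in cones, a ratio of 1.97 with no overlap. A UMI of Sag was found in 89.9% of rods and 84.0% of cones. Arr3, the cone arrestin, was 69.1-fold higher in cones. Pdc, phosducin, which binds transducin beta and gamma subunits, was 2.80-fold higher in rods in 4 of 4 replicates. Rcvrn, recoverin, a calcium sensor, was at 5047, 2429, 5836 and 4031 CPM in rods and 4326, 3571, 1577 and 3641 CPM in cones, with overlapping ranges. The cyclase activators went opposite ways on average. Guca1b was 4.28-fold higher in rods in 4 of 4 replicates, from 7 cone UMIs. Guca1a was 24.9-fold higher in cones, from 35 cone and 16 rod UMIs, and was higher there in 3 of 4 replicates. The cyclase gene Gucy2e differed by 1.57-fold and was higher in rods in 3 of 4 replicates. The other cyclase gene, Gucy2f, had 1 UMI in cones and a pooled ratio of 10.7 (exact 95% interval 1.89 to 426).

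**Figure D2:**
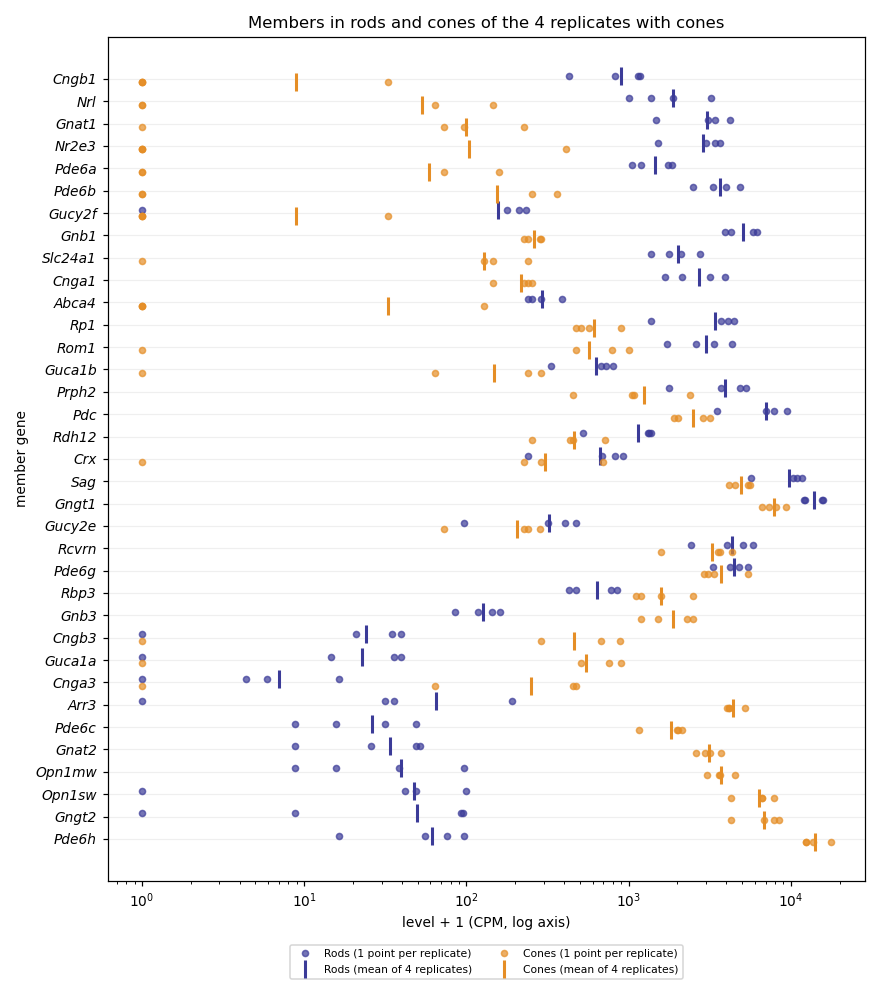
Level of each member (CPM + 1, log axis) in rods and in cones of the 4 replicates with cones, 1 point per replicate and a bar at the mean. Gngt1, Sag, Pde6g and Rcvrn lie close in both cell types, whereas Gnat2, the pigment genes, Gngt2 and Pde6h are separated by 94.9-fold or more.

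Genes of the outer segment membrane were higher in rods but far from absent in cones. Rp1, which organizes the axoneme of the outer segment, was 5.55-fold higher in rods, and Rom1, a disc rim protein, was 5.27-fold higher, each in 4 of 4 replicates. Prph2, the partner of Rom1 at the disc rim, was 3.15-fold higher in rods on average and was higher in cones in eNOS+/+ replicate 3. Retinoid genes differed among themselves. Abca4, a transporter that clears retinoid from the discs, was 9.18-fold higher in rods from 4 cone UMIs, and Rdh12, a retinal reductase, was 2.46-fold higher. Rbp3, the retinoid-binding protein of the matrix between photoreceptors and pigment epithelium, was 2.51-fold higher in cones in 4 of 4 replicates, the only gene used by both cell types with that direction throughout. The rod factors Nrl and Nr2e3 were 36.1-fold and 28.1-fold higher in rods on average, from 4 and 13 UMIs in cones. Over the pooled UMIs the ratio was 27.6 for Nrl and only 13.5 for Nr2e3. Crx, which both cell types use, was 2.19-fold higher in rods.

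The comparison of genotypes in rods asked whether the members differ between eNOS-/- and eNOS+/+. UMIs were summed over the rods of each replicate and tested with edgeR's quasi-likelihood test over 1522 genes. Of the 25 members that passed the filter on low counts, 0 were called at an adjusted p under 0.05, against 0.0657% (1 gene) of all genes tested. At an unadjusted p under 0.05, 0 of the 25 members passed with edgeR and 0 with DESeq2, against 1.77% and 0.197% of all genes. Without eNOS+/+ replicate 1, the library with 389 of the rods, 11 of 21 members passed this unadjusted limit, each positive, against 66 of 422 genes, and the smallest adjusted p of a member was 0.0927 (Rp1, by edgeR). With the rod share in the model 2 of 25 passed, Gucy2f and Gucy2e, against 76 of 2087 genes. In the fit to all 6 replicates the log2 fold change (eNOS-/- over eNOS+/+) was positive for 23 of the 25, against 55.5% of all genes. Its median was 0.49 over the members and 0.06 over all genes tested. Without eNOS+/+ replicate 1 the members' median was 1.07, without eNOS+/+ replicate 2 it was 0.14, and without both replicates with fewer than 30 rods, an alternative added after the data were seen, it was 0.27.

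The members of smallest p in rods were Gucy2e, Gnat1 and Rp1. Gucy2e, a guanylate cyclase, was at 316, 0 and 95.2 CPM in eNOS+/+ and at 473, 404 and 418 CPM in eNOS-/- rods. The 0 is that of 7 rods, where up to 1477 CPM would be allowed, so that the groups cannot be said to be apart. The log2 fold change was 0.92 (SE 0.56) with an adjusted p of 0.998. Gnat1 was at 3429, 0 and 1476 CPM in eNOS+/+ and at 4201, 3063 and 4733 CPM in eNOS-/-, a log2 fold change of 0.99 (SE 0.63) with an adjusted p of 0.998. Its 0 is of the same 7 rods. Rp1 was at 4435, 985 and 1381 CPM in eNOS+/+ and at 4116, 3685 and 5986 CPM in eNOS-/-, a log2 fold change of 0.88 (SE 0.64) with an adjusted p of 0.998. The lowest values in eNOS+/+ were those of the 2 replicates with 7 and 56 rods. EC markers, 11 genes such as Pecam1 and Cldn5 with none at 0, summed in rods to 710, 1969 and 4238 CPM in eNOS+/+ and to 1318, 1756 and 835 CPM in eNOS-/-, against 8579 to 10248 CPM in ECs. Their part in the difference between genotypes was not tested. Of the 28 further photoreceptor genes tested, 0 were called, and their median log2 fold change was 0.19.

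**Figure D3:**
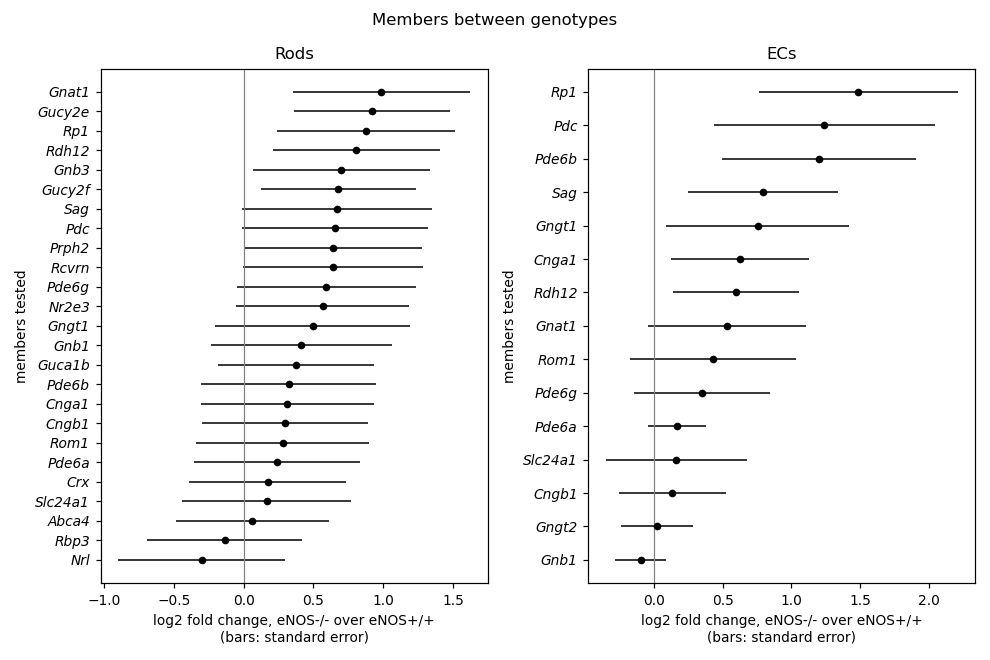
Log2 fold change (eNOS-/- over eNOS+/+, bars show the standard error) of the 25 members tested in rods and of the 15 tested in ECs. All adjusted p are above 0.05. Above 0 were 23 of 25 members in rods and 14 of 15 in ECs, against 55.5% and 51.1% of all genes tested. Without eNOS-/- replicate 2 it was 1 of 12 members in ECs.

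Members were then followed into the other cell types. For the 15 members that were higher in rods than in cones in all 4 replicates, leaving out Gnb1 and Pde6a, the level in ECs was 0.393%, 0.801%, 0.232% and 1.23% of that in rods (medians over the 15, in eNOS+/+ replicates 1 and 3 and eNOS-/- replicates 1 and 2, which have at least 50 rods). Of these 15 members 9 are rod-side and 6 (Pdc, Guca1b, Rom1, Rp1, Crx and Abca4) are used by both cell types. This choice of genes was made after values were seen. Of Sag, a UMI was found in 6.48% of ECs and 6.54% of mural cells, and in 2.51% of ECs and 1.36% of mural cells once every cell was drawn down to 500 UMIs. The drawn-down share in rods was 92.6%. Only cells with at least 500 UMIs can be drawn down, which left 3545 ECs, 147 mural cells and 421 rods.

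Levels of the members in ECs differed between libraries. In ECs Sag stood at 49.7, 27.4 and 36.1 CPM in eNOS+/+ and at 27.2, 139 and 16.4 CPM in eNOS-/-. Gngt1 stood at 27.9, 7.62 and 24.3 CPM in eNOS+/+ and at 17.7, 73.8 and 0 CPM in eNOS-/-. In both genes eNOS-/- replicate 2 was the highest library and eNOS-/- replicate 3 the lowest. Of the 35 members 29 were highest in ECs of eNOS-/- replicate 2, against 26.3% of the 19593 genes with a UMI in ECs. In that library the bipolar cell list of 10 genes summed to 218 CPM in ECs, against 10.2 to 23.0 CPM in the other 5, and its ECs had the lowest median depth (418 UMIs, against 782 to 1098). The ECs of eNOS-/- replicate 3 held mural markers at 2160 CPM, against 8.49 to 88.6 CPM in the other 5. The part of these in the members' levels was not tested.

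These 15 members together summed in ECs to 246, 152 and 186 CPM in eNOS+/+ and to 146, 665 and 63.5 CPM in eNOS-/-. In ECs with fewer than 500 UMIs the sum was 1630, 405 and 386 CPM in eNOS+/+ and 364, 2802 and 119 CPM in eNOS-/-. In ECs with at least 500 UMIs it was 159, 130 and 169 CPM in eNOS+/+ and 135, 349 and 59.4 CPM in eNOS-/-. The shallow ECs were higher in each of the 6 libraries. The 2 libraries with the largest rod shares, 38.2% and 20.2%, had the 2 highest sums over all ECs, at 246 and 665 CPM. Within these 2 the smaller share had the higher sum. The other sums, 146 CPM at 15.6% rods, 63.5 CPM at 6.27%, 186 CPM at 4.00% and 152 CPM at 1.14%, did not rise with the share. In eNOS-/- replicate 2, ECs outside the tip and proliferative subtypes stood at 994 CPM, tip ECs at 421 CPM and proliferative ECs at 340 CPM. In that library 46.3% of these UMIs were in the 7.86% of ECs that held 3 or more of them. In eNOS+/+ replicate 1 such ECs were 3.21% and held 51.7%, and in the other libraries they held 15% to 32.4%. A barcode that matched a rod's in its first 11 of 12 bases was found for 9 ECs, 3 in eNOS+/+ replicate 3 and 6 in eNOS-/- replicate 2. Whether free RNA, doublets or the cells themselves gave these UMIs was not tested.

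Between genotypes in ECs, 0 of the 15 members tested were called by edgeR, against 0.0211% (2 genes) of 9483 genes, and 0 by DESeq2, against 0.0316%. At an unadjusted p under 0.05, 0 members passed with either tool, against 5.78% and 3.42% of all genes. This count depended on the library left out. It was 5 of 15 without eNOS-/- replicate 1 and 6 of 20 without eNOS-/- replicate 3, each with a positive log2 fold change, against 362 of 8967 and 1091 of 10468 genes. Without eNOS-/- replicate 2 it was 1 of 12, Slc24a1 at -1.18, against 213 of 8933 genes. The 3 of smallest p were Rp1, Pde6b and Pdc. Rp1 was at 19.4, 22.8 and 5.25 CPM in eNOS+/+ and at 17.7, 84.9 and 2.05 CPM in eNOS-/- ECs, a log2 fold change of 1.49 (SE 0.72, adjusted p = 0.867 by edgeR). Pde6b was at 8.49, 6.09 and 9.19 CPM and at 8.64, 39.2 and 0 CPM, a log2 fold change of 1.20 (SE 0.71, adjusted p = 0.892 by edgeR). In both genes 1 eNOS-/- library was above all of eNOS+/+. A count of 0 in ECs of eNOS-/- replicate 3 allows up to 6.14 CPM. The 0 CPM of Pde6b there cannot be placed below the 6.09 CPM of eNOS+/+, and the 2.05 CPM of Rp1 is near that floor. Pdc was at 19.4, 3.05 and 9.19 CPM and at 7.77, 57.3 and 0 CPM, a log2 fold change of 1.24 (SE 0.80, adjusted p = 0.908 by edgeR). With no filter on low counts 2 members were called, Prph2 and Rp1, against 0.429% of 19593 genes. With the filter, the log2 fold change was positive for 14 of the 15 members, against 51.1% of all genes. Without eNOS-/- replicate 2 it was positive for 1 of 12, against 50.4%. The median over the 15 members was 0.53, against 0.01 over all genes, and -0.56 over the 12 without eNOS-/- replicate 2.

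**Figure D4:**
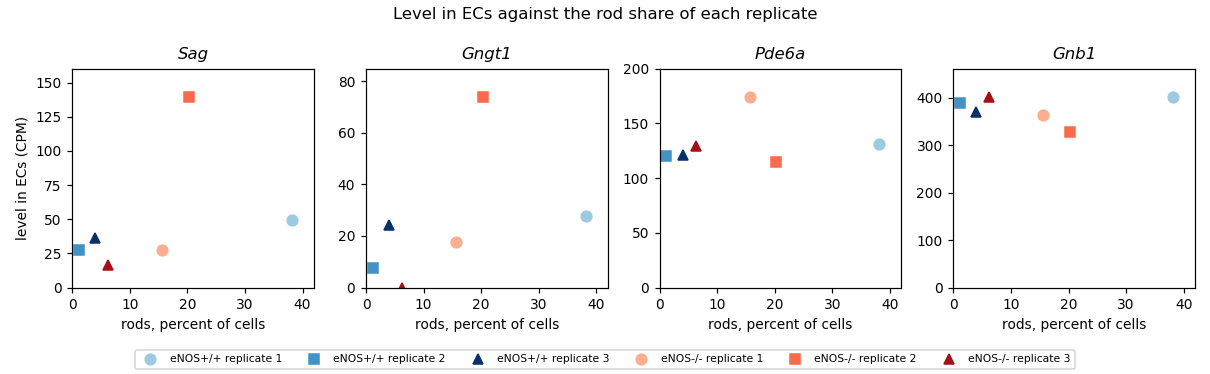
Level in ECs (CPM) of Sag, Gngt1, Pde6a and Gnb1 against the percent of cells labelled rods in each of the 6 replicates. For Sag and Gngt1 eNOS-/- replicate 2 stands above the rest, at 139 and 73.8 CPM, while Pde6a and Gnb1 stay within 115 to 174 and 327 to 401 CPM.

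The share of rods ranged from 1.14% of cells in eNOS+/+ replicate 2 to 38.2% in eNOS+/+ replicate 1, and the next comparison asked whether members in ECs follow it. Over 9942 genes, 0 of 17 members were called by edgeR, against 0.0201% (2 genes) of all, and 0 by DESeq2, against 0.453%. DESeq2 gave no adjusted p for Pdc, Rcvrn and Nr2e3, so it could not call them. At an unadjusted p under 0.05, 5 of the 17 passed, each with a positive slope, against 10.1% of all genes in either direction and 5% with a positive slope, and 2 passed with DESeq2, against 7.64%. These were Pdc, Rcvrn, Nr2e3, Gngt1 and Sag. Pdc had a slope of 0.75 on the log2 scale per doubling of the rod share (SE 0.26, adjusted p = 0.388 by edgeR), Rcvrn of 0.65 (SE 0.23, adjusted p = 0.410 by edgeR) and Nr2e3 of 0.64 (SE 0.25, adjusted p = 0.424 by edgeR). Without eNOS-/- replicate 2, Pdc, Rcvrn and Nr2e3 did not pass the filter on low counts and were not tested. None of the 12 members still tested, Gngt1 and Sag among them, passed the unadjusted limit, and their median slope was 0.05, against 0.24 over the 17. With cells of at least 500 UMIs 1 of 15 passed, against 997 of 9730 genes, and the members' median slope was 0.06. With genotype in the model 1 of 17 passed, against 869 of 9942 genes. With the rod share on a linear scale it was also 1 of 17, against 856 of 9942 genes. Without eNOS+/+ replicate 3 it was 2 of 15, against 740 of 8950 genes. Other alternatives left more members at this limit, each with a positive slope. With the share of UMIs in rods 7 of 17 passed, against 1120 of 9942 genes. Without eNOS-/- replicate 1 it was 6 of 15, against 698 of 8967 genes, and without eNOS+/+ replicate 1 it was 6 of 18, against 1197 of 10458. With no filter on low counts 5 members were called, Pdc, Prph2, Sag, Gngt1 and Rp1, against 0.822% of 19593 genes.

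For Gngt1 alone, the correlation of its level in ECs with the percent of rods over the 6 replicates was r = 0.439 (exact permutation p = 0.369, adjusted 0.561 over 2 relations) and rho = 0.657 (exact p = 0.175, adjusted 0.350), two-sided. Against the share of UMIs in rods, r was 0.466 (exact permutation p = 0.358) and rho 0.829 (exact p = 0.0583). Without the 2 replicates farthest from the median rod share, eNOS+/+ replicates 1 and 2, r with the percent of rods was 0.731 over 4 replicates. In neurons r was -0.330 (exact permutation p = 0.561, adjusted 0.561) and rho -0.314 (exact p = 0.564, adjusted 0.564), and r was 0.566 without the same 2 replicates. The relation was not detectable with 6 libraries.

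Gnb1 and Pde6a, which were left out of those 15 members after values were seen, had a higher level in ECs relative to rods than the 15. Gnb1, which encodes a G protein beta subunit also used outside photoreceptors, was in ECs at 401, 390.0 and 371 CPM in eNOS+/+ and at 364, 327 and 401 CPM in eNOS-/-. These values are 6.25% to 9.50% of those in rods, and the ECs of eNOS-/- replicate 2 were the lowest of the 6. A UMI of Gnb1 was found in 29.1% of ECs and 25.2% of mural cells, and in 16.2% and 10.9% after drawing down, against 5.36% of neurons. Pde6a was in ECs at 131, 120.3 and 121 CPM in eNOS+/+ and at 174, 115 and 129 CPM in eNOS-/-, which is 7.10% to 11.5% of its level in rods. Its mean level was 123 CPM in neurons, 107 CPM in mural cells, 119 CPM in immune cells and 147 CPM in neuroglia, against 57.6 CPM in cones. The Pde6a gene overlaps the ribosomal protein pseudogene Rps2-ps10 on the opposite strand, and the part of that overlap in these counts was not tested.

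**Figure D5:**
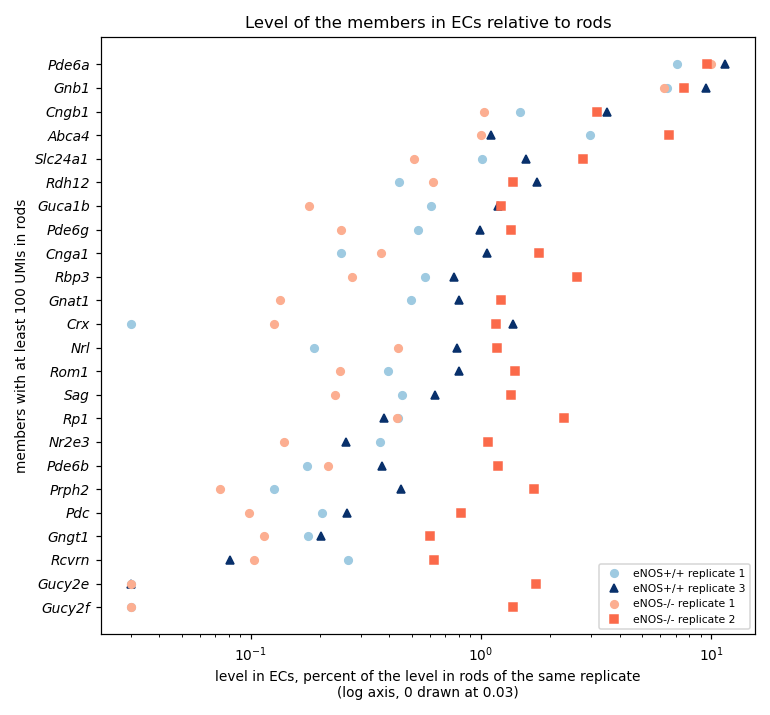
Level of each member in ECs as a percent of its level in rods of the same replicate (log axis), for members with at least 100 UMIs in rods, in the 4 replicates with at least 50 rods. Pde6a and Gnb1 lie at 6.25% or more in every replicate, and eNOS-/- replicate 2 is the highest of the 4 for many of the other genes.

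Gngt2, a cone-side member, was also counted outside photoreceptors. In ECs it was at 41.2, 65.5 and 67.0 CPM in eNOS+/+ and at 47.5, 63.9 and 71.7 CPM in eNOS-/-, with overlapping groups. Its mean was 192 CPM in immune cells (SD 164, n = 6) and 85.2 CPM in mural cells (SD 109, n = 6), and 0 UMIs were counted in 184 neuroglia. After drawing down, a UMI was found in 10.5% of immune cells, 2.62% of ECs and 0.680% of mural cells. Gngt2 overlaps Abi3 on the opposite strand. The other cone genes were near 0 in ECs, where Pde6h stood at 3.05 to 10.2 CPM and Opn1sw at 0 to 4.12 CPM. Abca4 was present in Optc+ cells, a type named by its marker gene, at 119, 149 and 147 CPM in eNOS+/+ and at 186, 185 and 0 CPM in eNOS-/-, from 37 UMIs in all. The 0 is that of 5 cells, where up to 751 CPM would be allowed. In the 4 replicates with at least 50 rods the level of Abca4 in Optc+ cells was 41.5% to 73.6% of that in rods. In immune cells of those replicates it was 3.56% to 85.2%.

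The cells labelled neurons carry bipolar markers, at 8497 to 17459 CPM for the list of 10 genes against 0 to 666 CPM in rods. They held Gnb3, the beta subunit that bipolar cells also use, at 889, 193 and 989 CPM in eNOS+/+ and at 727, 718 and 0 CPM in eNOS-/-. In the 4 replicates with at least 50 rods this was 450.1% to 1059.5% of the level in rods, and a UMI was found in 35.1% of neurons against 4.77% of rods and 0.608% of ECs. Crx was in neurons at 158, 386 and 138 CPM in eNOS+/+ and at 102, 174 and 167 CPM in eNOS-/-, with a median of 19.2% of the level in rods over those 4 replicates and a highest value of 58.2%. The 2 replicates with 11 and 10 neurons, eNOS+/+ replicate 2 and eNOS-/- replicate 3, each listed 28 of the 34 members seen in neurons at 0. The neurons of eNOS-/- replicate 3 also held mural markers at 6360 CPM, against 0 to 376 CPM in the other 5, and the part of this in the neuron values was not tested.

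In neurons only 2 members passed the filter for the comparison of genotypes, and 0 were called by edgeR or DESeq2, against 0% of 982 genes. At an unadjusted p under 0.05, 0 passed with either tool, against 4.18% and 1.22% of genes. Gnb3 had a log2 fold change of -0.39 (SE 0.48) and Rom1 of -0.22 (SE 0.58), each with an adjusted p of 0.9995 by edgeR. Against the rod share 0 of 5 members were called by either tool, against 0.232% of 1294 genes with edgeR and 0% with DESeq2. At an unadjusted p under 0.05, 0 passed, against 4.56% and 6.65% of genes. Without eNOS+/+ replicate 3 it was 1 of 4 by edgeR, against 68 of 1214 genes. The slopes of smallest p were 0.18 for Gnb3 (SE 0.17), -0.16 for Gngt1 (SE 0.21) and 0.17 for Prph2 (SE 0.28), each with an adjusted p of 0.986 by edgeR. Leaving out any 1 replicate or choosing the other alternatives gave no called member in rods or neurons.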

How the data were processed

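Per the labels and the methods, the authors used kb-python and GRCm38 to count Drop-seq UMIs, left out cells with fewer than 100 genes or over 10% mitochondrial UMIs, integrated the replicates and named cell types with Seurat 3. They deposited UMI counts per gene and cell without normalization, and per-cell metadata with the percent of mitochondrial UMIs, deposited by the authors. The annotation and the strand setting of the counting are not given in the sources used here. The 3031 eNOS+/+ and 5913 eNOS-/- cells equal the numbers stated with the series, whereas 2121 and 3804 cells carry an EC label against 2044 and 3334 ECs stated. All deposited cells are called singlets, no doublet caller was run here, and 10 metadata columns were not used. A column of library names gives the 613 cells of eNOS+/+ replicate 2 the name of eNOS+/+ replicate 1, whereas the replicate column, used here, and the barcode suffix keep them apart. Which is right is not given, and these 2 replicates hold the lowest and the highest rod share.

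UMIs were summed per replicate and cell type, since cells are not replicates, and levels are CPM of these sums. Replicates are separate pools of retinas. Sums were tested with edgeR 4.0.16 (R 4.3.3; filterByExpr, TMM, quasi-likelihood test, Benjamini-Hochberg adjustment over all genes tested, limit 0.05) and with DESeq2 1.42.0, over genotype or the log2 percent of rods. The standard error is the log2 fold change over the square root of F. The script was tested on simulated data. Exact permutation tests used all 720 pairings. Intervals and limits from 0 counts cover counting error only. Coordinates are from GENCODE M21, to which 35 of 35 members matched, and promoters from RefSeq (GRCm38.p6). Python 3.11.15 was used with pandas 2.3.3, scipy 1.17.1, numpy 2.4.6 and, for plots, matplotlib 3.10.9.

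The members, the marker lists and the tests were chosen with earlier results of these data known. All members are given in rods and cones, and in each test the called members or, with fewer than 3 called, the 3 of smallest p. Alternatives were DESeq2, RLE scaling, no filter, a block for the replicate number, leaving out 1 replicate at a time, cells with at least 500 UMIs, 1 cell per barcode family (the same first 11 of 12 bases) and other covariates. Protein sequences were not used here.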

Additional observations from a re-analysis of the deposited data

How the results depend on the processing

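No member was called in the comparisons of genotype in rods and in neurons, or against the rod share in neurons, under the alternatives run. In ECs the count of called members stayed at 0 under the alternatives run except with no filter on low counts, where 2 members (Prph2 and Rp1) were called between genotypes and 5 against the rod share. Against the rod share in ECs, DESeq2 gave no adjusted p for Pdc, Rcvrn and Nr2e3. Among all genes no filter called 84 between genotypes in ECs (2 with the filter) and 161 against the rod share (2 with the filter), where DESeq2 called 45. Leaving out eNOS-/- replicate 3 called 78 genes between genotypes in ECs. Over the other alternatives the number of genes called ran from 0 to 5 in rods, 0 to 3 between genotypes in neurons, 1 to 9 against the rod share in ECs and 0 to 5 in neurons. Leaving out each replicate gave 0 called members in each of the 5 tests. It left 17 to 22 members higher in rods and 9 to 11 higher in cones in every remaining replicate with cones. With fewer replicates to meet, these 2 counts can only stay or rise, so they cannot serve as a check. Other choices of cells gave 14 to 17 members higher in rods and 8 to 9 higher in cones. The correlation of Gngt1 with the rod share in neurons turned from -0.330 to 0.566 without the 2 replicates farthest from the median share. The cause was not tested.

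Directions turned for Rp1 between genotypes in ECs, at -0.22 without eNOS-/- replicate 2 (up to 1.86 without another replicate), and for Rom1 in neurons, at 0.17 with DESeq2, 0.12 with no filter, 0.40 with the replicate block, 0.09 without eNOS-/- replicate 1, 0.16 without eNOS-/- replicate 2 and 0.04 without eNOS+/+ replicate 3 (down to -0.38 without another replicate). Neither was called with the filter. Libraries of the 2 genotypes share a replicate number. The correlations of their deviations in ECs were 0.164, -0.091 and 0.144 for equal numbers and -0.222 to 0.167 for unequal numbers. Whether equal numbers mark a batch was not tested. The replicate block called 0 members in each test. Against the rod share in ECs it called 5 genes. There 11 of 17 members were at an unadjusted p under 0.05, each with a positive slope, against 675 of 9942 genes. Rods of eNOS+/+ replicate 2 and eNOS-/- replicate 3 had no cell with at least 500 UMIs, so that alternative rests on 4 replicates. Depth limits the sums of few cells, such as the 50 cones and the 7 rods of eNOS+/+ replicate 2.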
